A study of Mus musculus with 5 samples.

Results

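The chaperone genes Hspa8, Hsp90aa1, Hsp90ab1, Hspa5, Hsp90b1, Hspd1 and Hspe1 were followed in CD4 T cells of mice treated with near-infrared laser light. The 7 genes were taken by name, with earlier results of these data known, from 10290 genes with a usable count in at least 1 library. All 7 had a count in both lymph node libraries and in the colon library after light, and 4 of 7 had one in the colon control. Hsp90aa1, Hspd1 and Hspe1 were listed at 0 there.

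The cells came from colon and lymph node of mice described as having autoimmune colitis, were sorted as CD4 T cells, and had their poly(A) RNA tagged at the 3′ end and sequenced. Each tissue gave a control library and a light library, so there were 4 groups with 1 library each. Light-treated mice were exposed for 5 minutes, once every 2 days, to a 980 nm laser of 1.22 W at 80% duty over 4 square centimetres, and control mice are labelled only as control. The labels used here give no strain, age, number of mice, time from the last exposure to collection, or tissue temperature. With 1 library per group no difference has a replicate check, so no p-value is given.

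Chaperones bind unfolded or partly folded proteins and keep them from aggregating until they fold. The Hsp70 family (Hspa8 in the cytosol, Hspa5 in the endoplasmic reticulum) works through cycles of ATP binding and hydrolysis driven by J-domain cochaperones, and the Hsp90 family (Hsp90aa1 and Hsp90ab1 in the cytosol, Hsp90b1 in the endoplasmic reticulum) finishes the folding of kinases, receptors and other clients. Hspd1 and Hspe1 form the folding chamber of the mitochondrial matrix and its lid. Heat activates the transcription factor Hsf1, which binds heat-shock elements in the promoters of Hspa1a, Hspa1b, Hsph1, Dnajb1 and other genes, while unfolded protein in the endoplasmic reticulum activates Atf6 and Xbp1, which act on Hspa5 and Hsp90b1. In T cells the endoplasmic reticulum pair also serves the folding of secreted and surface proteins, and Hspa8 and Hsp90ab1 are expressed without heat.

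The promoters of the compartment-specific members carry the letters of these response elements, and the stretches below are shown because they separate the endoplasmic reticulum pair from the mitochondrial pair. RefSeq promoter windows (GRCm38.p6, 250 bases before to 50 after a gene's start) were available here for 4 of the 7 members: Hspa5, Hsp90b1, Hspd1 and Hspe1. The endoplasmic reticulum stress element, searched as CCAAT and CCACG with 9 bases of any kind between them, or CGTGG and ATTGG for the other strand, was found in 39 of 32851 windows (0.119%), among them those of Hspa5 and Hsp90b1. In Hspa5 (chr2:34772020-34772049, plus strand) the match, in capitals, starts 65 bases before the RefSeq start at 34772090. Starts in these windows are RefSeq's and differ from the GENCODE gene bounds given with the values further on.
Hspa5: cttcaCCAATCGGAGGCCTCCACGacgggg
In Hsp90b1 (chr10:86705510-86705694, minus strand) there were 2 matches, also in capitals and in opposite orientations, starting 212 and 107 bases before the RefSeq start at 86705444.
Hsp90b1: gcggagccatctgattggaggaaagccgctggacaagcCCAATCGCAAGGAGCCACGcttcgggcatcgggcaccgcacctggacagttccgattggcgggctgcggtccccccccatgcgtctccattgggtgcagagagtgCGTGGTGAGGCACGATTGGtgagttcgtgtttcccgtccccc
The heat-shock element, searched as TTC, GAA and TTC, or GAA, TTC and GAA for the other strand, with 2 bases of any kind between the parts, was found in 198 of 32851 windows (0.603%), among them those of Hspd1 and Hspe1. Hspd1 and Hspe1 are transcribed away from each other and their GENCODE genes overlap by 112 bases, so the same letters lie in both windows. The stretch (chr1:55088053-55088082, plus strand) holds 2 overlapping matches, in capitals, from 89 to 72 bases before the RefSeq start of Hspe1 at 55088148.
Hspe1: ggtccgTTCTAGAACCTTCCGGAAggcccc
Neither pair's windows held the other element in these letters. A match is a description of the sequence, and nothing here measured binding to it.

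Deposited counts summed to 971227 (control) and 1068864 (light) for the lymph node and to 435847 (control) and 1959296 (light) for the colon. Barcode columns of a table repeat the same molecules, so the lymph node sums stand for 11542 and 21186 independent counts, called molecule-equivalents, and the colon sums for 6114 and 39097. Levels are counts scaled to a library total of 1e6 (CPM). A count of 0 allows up to 3 molecule-equivalents, which is 260 CPM (control) and 142 CPM (light) for the lymph node and 491 CPM (control) and 76.7 CPM (light) for the colon. Of 15 T-cell markers, 14 had a count in every library but the colon control, Cd4 and the CD3 chains included. In the colon control 4 of 15 did. There the rows of Cd3d, Cd3e, Cd3g and Cd4 repeat those of the lymph node control table and were not used, and Trac, Trbc1 and Cd2 were among the markers at 0. The colon control shares 5 barcodes with the colon light table, whereas the 2 lymph node tables share 373, so processing and treatment cannot be told apart in that library. In RNA of sorted pools, fewer cells of a type and less RNA per cell cannot be told apart.

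Summed over the 7 genes, chaperone RNA of the lymph node stood at 4916 CPM in the control (95% counting interval 3722 to 6368) and 4999 CPM after light (4094 to 6043). In the colon it stood at 1277 CPM in the control (545 to 2535) and 5750 CPM after light (5024 to 6550). The colon control lies below the other 3, whose intervals overlap one another. The colon control value rests on 7.81 molecule-equivalents, or 8 molecules recovered from its column patterns, where the colon gave 293 after light and the lymph node 61.8 and 132. After light, the colon's molecules were spread over 163 of 279 column patterns, with at most 10.7 in any of them. Those of the lymph node were spread over 52 of 306 patterns in the control (at most 3.92) and 79 of 279 after light (at most 8).

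**Figure D1:**
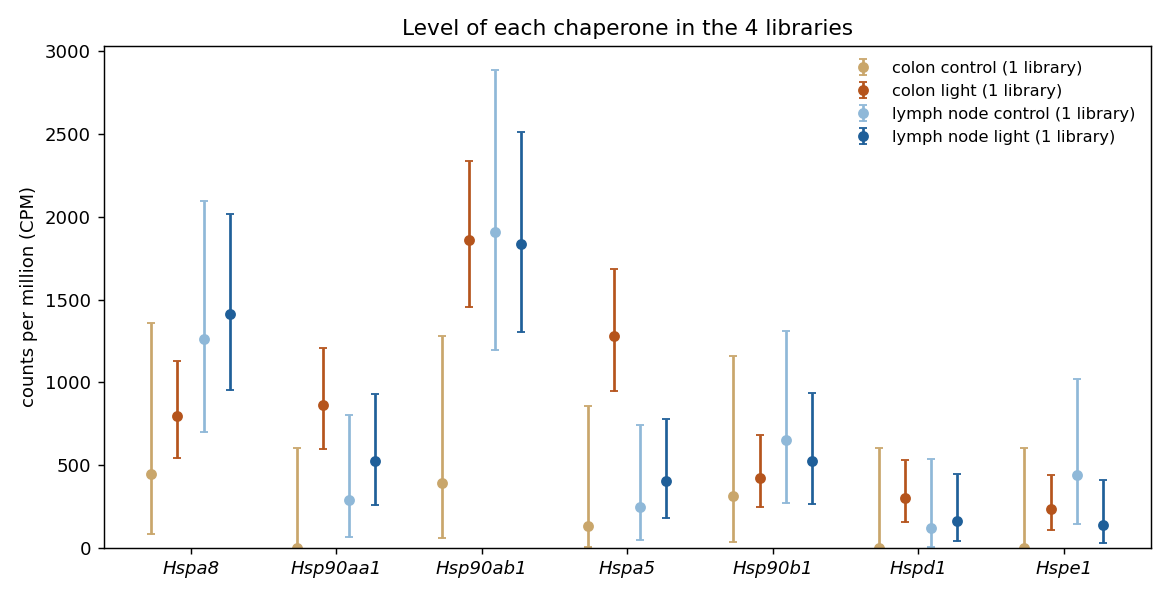
Level of each chaperone in CPM (vertical axis) in the 4 libraries; points are single libraries and bars are 95% counting intervals on molecule-equivalents. Hspa5 stands at 1279 CPM in the colon light library and at 404 CPM or less in the other 3, and Hsp90aa1, Hspd1 and Hspe1 lie at 0 in the colon control.

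Among the cytosolic members, Hspa8 (chr9:40800984-40810087 in mm10, plus strand) encodes the constitutive Hsp70 that also strips clathrin coats and carries clients to lysosomes. In the lymph node it stood at 1261 CPM in the control and 1411 CPM after light, and in the colon at 443 and 794 CPM. Both lymph node libraries were above both colon libraries. The intervals of the lymph node libraries overlap widely (699 to 2095 and 951 to 2015 CPM), and both reach into that of the colon after light (540 to 1127 CPM). Hsp90ab1 (chr17:45567775-45573271, minus strand), the constitutive cytosolic Hsp90, stood at 1910 and 1838 CPM in the lymph node and at 390 and 1857 CPM in the colon, control first. The 3 libraries other than the colon control are within their counting error of each other. Hsp90aa1 (chr12:110690605-110702728, minus strand), the more inducible cytosolic Hsp90, stood at 288 CPM in the lymph node control and 521 CPM after light, and in the colon it was listed at 0 in the control and stood at 862 CPM after light. Its order was colon light, lymph node light, lymph node control, and neighbours in that order have overlapping intervals (596 to 1206, 261 to 931 and 66.2 to 802 CPM).

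In the endoplasmic reticulum, Hspa5 (chr2:34771970-34777547, plus strand) encodes BiP, the Hsp70 of that compartment and the sensor-binding protein of the unfolded protein response. In the lymph node it stood at 247 CPM in the control and 404 CPM after light, and in the colon at 134 and 1279 CPM. The colon light value, with an interval of 949 to 1685 CPM, lies above the intervals of the other 3 libraries, whose upper ends are 859, 740 and 779 CPM. Hsp90b1 (chr10:86690209-86705509, minus strand), which encodes Grp94, the Hsp90 that folds integrins and Toll-like receptors, stood at 651 and 523 CPM in the lymph node and at 311 and 422 CPM in the colon, control first. All 4 of its intervals overlap, so Hsp90b1 did not share the high colon light value of Hspa5, although both carry the stress element printed above.

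In mitochondria, Hspd1 (chr1:55077835-55088243, minus strand), the chamber subunit, stood at 117 CPM in the lymph node control, 164 CPM in the lymph node after light and 302 CPM in the colon after light. Hspe1 (chr1:55088132-55091307, plus strand), the lid subunit, stood at 441, 138 and 234 CPM in the same order, and both genes were listed at 0 in the colon control. Together the pair in the colon light library came to 536 CPM, which is 9.33% of chaperone counts, where the lymph node control had 558 CPM and 11.4%. These values rest on 14 and 11 recovered molecules in the colon light library and on 1 to 6.76 in each lymph node library, and all intervals outside the colon control overlap. Processed copies can take reads of these 2 genes: 11 pseudogenes named after them are annotated, and 1 of them, Hspe1-ps1, was listed in a table.

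Light against control in the lymph node asked whether the exposure came with higher chaperone RNA in CD4 T cells there. The log2 ratio of the summed chaperones was 0.02, with an interval of -0.45 to 0.52. The cytosolic genes had a ratio of 0.12 (-0.44 to 0.71), the endoplasmic reticulum pair of 0.04 (-1.11 to 1.29) and the mitochondrial pair of -0.82 (-2.72 to 0.94). No compartment was therefore separated from 0 by its counting error. Of the 7 genes, 2 reached the minimum of 20 molecule-equivalents over both libraries, and 0 of these 2 differed 2-fold, where 5.32% of the 188 genes tested stood 2-fold or more higher and 5.85% lower. By intervals 0 of 2 lay above and 0 of 2 below 0, where 5.32% and 9.04% of those genes did.

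Gene by gene in the lymph node, Hspa8 had a log2 ratio of 0.16 (-0.79 to 1.17) and Hsp90ab1 of -0.05 (-0.85 to 0.77). In this scaling the counting interval of Hsp90ab1 ends below a doubling and that of Hspa8 does not. Neither interval covers differences between mice or libraries. Moved by the 0.48 of the scaling given below, the interval of Hsp90ab1 also reaches past a doubling. Hsp90aa1 at 0.79 (-1.0 to 3.19), Hspa5 at 0.65 (-1.35 to 3.32) and Hspd1 at 0.39 (-2.75 to 5.01) were nominally higher. Hsp90b1 at -0.30 (-1.78 to 1.24) and Hspe1 at -1.48 (-4.38 to 0.69) were nominally lower. The 5 genes under the minimum have intervals that include 0 and reach past 2-fold in at least 1 direction. Scaled by the median ratio over 2516 genes counted in both libraries, which moves every ratio by 0.48, the summed ratio was 0.51 (0.03 to 1.00) and only Hspe1 stayed below 0. The median over the 188 tested genes counted in both moves ratios by 0.16 instead. That leaves the lower end of the summed interval below 0.

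**Figure D2:**
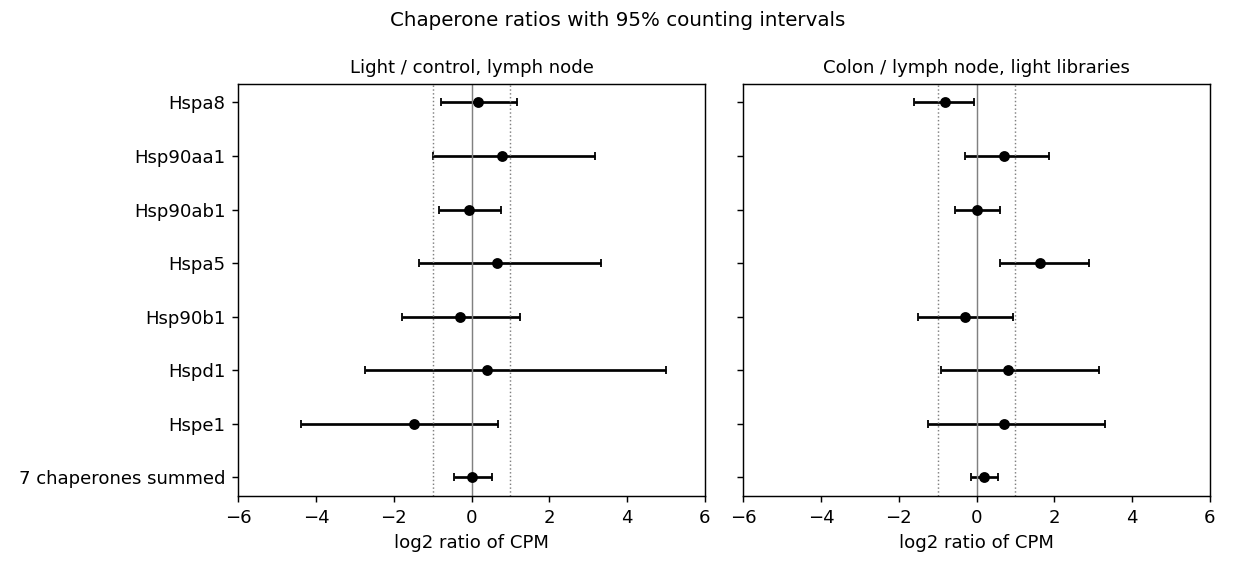
Log2 ratio of CPM for each chaperone and for their sum, light against control in the lymph node (left) and colon against lymph node in the light libraries (right); bars are 95% counting intervals and dotted lines mark 2-fold. All 8 intervals in the left panel include 0, and in the right panel Hspa5 at 1.62 lies wholly above 0 and Hspa8 at -0.82 wholly below it.

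Colon against lymph node within the light-treated libraries compared the tissues in the deepest pair of libraries. Hspa5 was higher in the colon, at 1279 against 404 CPM (log2 ratio 1.62, interval 0.60 to 2.90), and Hspa8 was lower, at 794 against 1411 CPM (-0.82, -1.60 to -0.05). Hsp90ab1 stood at 1857 and 1838 CPM, a ratio of 0.02 (-0.57 to 0.62). Of 5 members tested, 1 was at least 2-fold higher (Hspa5) and 0 at least 2-fold lower, where 13.2% and 19.2% of 302 genes were. By intervals, 1 of 5 lay above 0 and 1 of 5 below it, where 10.9% and 24.2% of all genes tested did. The members' shares are close to those backgrounds.

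For the remaining members of the tissue comparison the intervals include 0. Hsp90aa1 stood at a log2 ratio of 0.71 (-0.29 to 1.85), Hsp90b1 at -0.30 (-1.50 to 0.93), Hspd1 at 0.82 (-0.92 to 3.15) and Hspe1 at 0.69 (-1.25 to 3.31). The 7 genes summed gave 0.20 (-0.14 to 0.55), with the cytosolic genes at -0.10 (-0.51 to 0.31) and the endoplasmic reticulum pair at 0.86 (0.13 to 1.68). The median of the 5 members tested was 0.02 and that of all 302 genes was -0.34. Relative to that median of all genes the summed ratio was 0.55 (0.21 to 0.90), Hspa5 stood at 1.97 (0.95 to 3.25), and Hspa8 at -0.47 (-1.25 to 0.29) no longer had an interval below 0. Across all 10 alternatives run for it, Hspa5 kept a ratio of 1.55 to 2.16.

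The make-up of the chaperone counts, which no library scaling alters, differed in the same 2 genes. Hspa5 made up 22.2% of chaperone counts in the colon light library (95% binomial interval on molecule-equivalents 17% to 28.2%) and 8.09% in the lymph node light library (3.68% to 15.0%). Hspa8 made up 13.8% (9.58% to 19.0%) in the first and 28.2% (19.9% to 37.8%) in the second. For both genes the intervals of the light libraries do not meet. The shares come from the same counts as the ratios above and are not separate support for them. Their total is fixed, so a larger share of Hspa5 makes those of the other genes smaller. The lymph node control, with Hspa5 at 5.03% (0.99% to 14.3%) and Hspa8 at 25.7% (15.0% to 39.0%), resembled the lymph node light library, whereas Hsp90ab1 took between 30.5% and 38.9% of the counts in all 4. The colon control, with Hspa5 at 10.5% (0.13% to 51.0%) and Hspa8 at 34.7% (6.93% to 73.7%), is too shallow to be placed with either tissue.

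**Figure D3:**
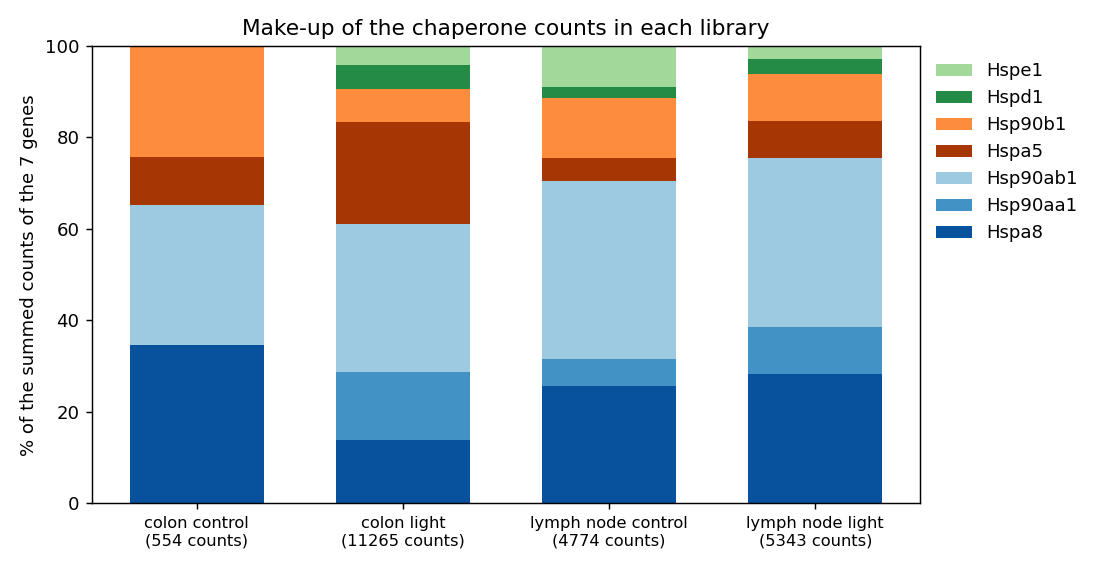
Share of each gene in the summed counts of the 7 chaperones (vertical axis, percent) in the 4 libraries, with cytosolic genes in blue, endoplasmic reticulum genes in orange and mitochondrial genes in green. Hspa5 takes 22.2% in the colon light library against 8.09% in the lymph node light library, and Hspa8 takes 13.8% against 28.2%.

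Markers of other cells moved with the tissue comparison. In the light libraries, 9 of 15 myeloid markers had a count in the colon and 5 of 15 in the lymph node, summing to 2329 and 543 CPM, with Itgam, Adgre1, S100a8, S100a9 and Cd14 at 0 in both. All 6 class II antigen presentation genes had a count in the colon light library and 3 of 6 in the lymph node light library, at 2079 and 159 CPM. The 15 T-cell markers summed to 3491 and 9102 CPM, and all 13 epithelial markers were at 0 in all 4 libraries. The 13 B and plasma cell markers came to 180 and 176 CPM with 2 of 13 counted in each and Jchain, Mzb1, Cd79a and Sdc1 at 0 in both. Xbp1, a factor of the unfolded protein response that plasma cells need, made up most of both sums, at 159 and 141 CPM, beside Igkc (20.4 CPM) in the colon and Ighm (34.6 CPM) in the lymph node. The part of myeloid, class II expressing, B and plasma cells in the Hspa5 and Hspa8 differences was not tested.

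Light against control in the colon had chaperones higher in the light library, at 5750 against 1277 CPM summed (log2 ratio 2.15, interval 1.16 to 3.42). Hsp90ab1 had a ratio of 2.19 (0.48 to 4.96), while Hspa8 at 0.81 (-0.91 to 3.36) and Hsp90b1 at 0.41 (-1.68 to 3.71) had intervals that include 0. Hspa5 rests on 0.82 molecule-equivalents in the control, with a ratio of 3.06 (0.51 to 9.61). Hsp90aa1 was at least 1.76-fold higher, computed against 3 molecule-equivalents in the control library and without the error of the light value. With that error the lower end of its log2 interval was 0.43. Hspd1 and Hspe1 in the light library stay below that floor and get no fold. By the fitted ratio 3 of the 4 members tested (Hsp90aa1, Hsp90ab1 and Hspa5) were 2-fold or more higher and 0 lower, where 76.2% and 14.6% of 206 genes were. The same 3 had intervals above 0, where 39.8% of genes did and 14.1% had intervals below 0. All 4 members met the minimum through the light library, with 31.0 or more molecule-equivalents each there and at most 2.71 in the control. Members not high in the light library were left out by the minimum, so these counts carry no support for a rise.

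The median ratio of all 206 genes was 2.19, and that of the 4 members 2.63. Scaled by the median over 1146 genes with a count in both colon libraries, the summed chaperone ratio was 3.49 (2.49 to 4.75). Scaled instead by the median over the 146 of them that were tested, it was 0.28 (-0.72 to 1.54) and Hspa8 and Hsp90b1 turned to -1.06 and -1.46. In the colon control, the long noncoding RNA gene Gm12374 took 17.7% of counts, against 2.47% in the colon light library. The 11 T-cell markers usable in every library summed to 2801 CPM after light in the colon and to 429 CPM without it. The part of library content in the colon ratios was not tested.

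Colon against lymph node in the control libraries rests on the same shallow library. The colon had less chaperone RNA in sum, 1277 against 4916 CPM (log2 ratio -1.90, -3.24 to -0.86), and -1.97 (-3.31 to -0.93) scaled by the median over 720 genes counted in both. Scaled by the median over the tested genes counted in both, the direction turned to 0.61 (-0.73 to 1.65). Of the 7 genes, Hsp90ab1 alone reached the minimum count, at 390 against 1910 CPM (-2.14, -5.07 to -0.40). That 1 of 1 stands beside 67.4% of 89 genes that were 2-fold or more lower and 29.2% that were higher, and by intervals beside 67.4% below 0 and 28.1% above it. Hspa8 at -1.40 (-4.11 to 0.39), Hsp90b1 at -0.94 (-4.46 to 1.33) and Hspa5 at -0.67 (-7.61 to 2.99) had intervals that include 0.

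The light ratio of the colon minus that of the lymph node was 2.13 (1.03 to 3.23) for the summed chaperones. Hsp90ab1 had a difference of 2.25 (0.39 to 4.10), Hspa5 of 2.41 (-0.67 to 5.50), Hsp90b1 of 0.71 (-1.63 to 3.05) and Hspa8 of 0.65 (-1.23 to 2.54). Of 5 members tested, 3 were at least 2-fold higher in this difference, Hsp90aa1 with its 0 in the colon control included, and 0 were lower to that extent, where 75.5% and 9.22% of 412 genes were. By intervals 2 of 5 (Hsp90aa1 and Hsp90ab1) lay above 0 and 0 of 5 below it, where 32.3% and 6.07% of genes did. Each of the 5 members held at most 2.71 molecule-equivalents in the colon control, so other libraries met the minimum. These counts carry no support for a direction. The median over those genes was 2.46 and over the 5 members 2.25. Scaled by the medians over all genes counted in both libraries of each pair, the summed difference was 2.98 (1.88 to 4.08), and by the medians over tested genes 0.09 (-1.01 to 1.19).

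Genes of the cytosolic heat response were listed to set the 7 chaperones beside the targets of Hsf1. Of 16 heat-inducible targets, 8 had a count in the lymph node control and 10 after light there, and 2 in the colon control and 14 after light there. Summed they stood at 2058 CPM in the lymph node control and 1844 CPM in the lymph node light library, a log2 ratio of -0.16 (-0.93 to 0.64). Between the light libraries they stood at 2552 CPM in the colon and 1844 CPM in the lymph node, a ratio of 0.47 (-0.08 to 1.04), and of 1.01 (0.46 to 1.58) scaled by the median ratio over genes counted in both. The colon light library is also the deepest, so it detects more genes of any list.

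Hspa1a and Hspa1b, the near-identical genes of strongly heat-induced Hsp70, were counted in the colon light library alone. Hspa1a summed to 357 counts there, or 182 CPM from 9 recovered molecules, and Hspa1b to 159 counts, or 81.2 CPM from 4 molecules. Both were listed at 0 in the other 3 libraries. Set against the floor of the lymph node light library (3 molecule-equivalents), the colon light value of Hspa1a was at least 1.29-fold higher, a bound that leaves out the error of the colon value. With that error the log2 interval starts at -0.32 and includes 0. Hspa1b was below that floor, and both genes lie below the colon control's floor of 491 CPM, so neither gets a light fold in the colon. Reads of the 2 genes can be split or exchanged by the counting, which gives their separate values less weight than their sum. The bounds above are for each gene singly and do not describe that sum, for which no ratio is given here.

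Hsph1, the nucleotide exchange factor of Hsp70, had 12 recovered molecules in the colon light library (284 CPM) and 0 in the colon control, with 1 (78.3 CPM) and 2 (110 CPM) in the lymph node control and light libraries. Dnajb1, the J-domain partner of heat-induced Hsp70, stood in the lymph node at 505 CPM in the control and 114 CPM in the light library, from 6 and 3 molecules, a log2 ratio of -1.89 (-5.12 to 0.23). Dnaja1, a J-domain cochaperone of Hspa8, stood at 415 and 247 CPM in the lymph node and at 171 and 537 CPM in the colon, control first. In the light libraries its colon ratio was 1.07 (-0.30 to 2.84). Ubb, a polyubiquitin gene, had a ratio of 0.47 (-0.46 to 1.51), so 1 of the 2 heat-inducible targets tested was at least 2-fold higher, where 13.2% of 302 genes were, and 0 of the 2 had an interval above 0, where 10.9% did.

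**Figure D4:**
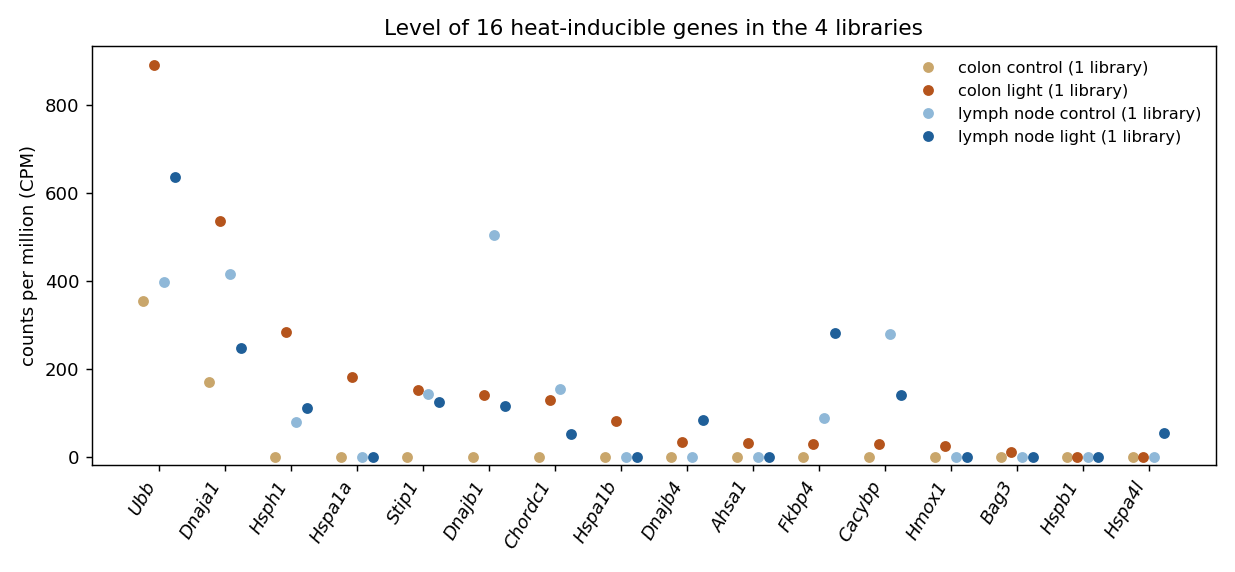
Level in CPM (vertical axis) of 16 heat-inducible genes in the 4 libraries, ordered by their colon light level; each point is a single library. Hspa1a and Hspa1b are above 0 in the colon light library alone, at 182 and 81.2 CPM, while Dnajb1 is highest in the lymph node control at 505 CPM.

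The cochaperones and the other folding systems were summed as lists of 196 genes in all, of which 166 had a count. In the lymph node, the 33 genes of the Hsp70 system had a light ratio of -0.27 (-0.91 to 0.38) and the 18 Hsp90 cochaperones of 0.07 (-0.82 to 1.01). The 40 genes of endoplasmic reticulum folding and the unfolded protein response stood at 4128 CPM in the control and 6462 CPM in the light library (0.64, 0.16 to 1.15), or 1.12 (0.64 to 1.64) scaled by the median ratio over genes counted in both libraries. Of its genes 2, Prkcsh and Sec61b, were tested and both at least 2-fold higher, where 5.32% of 188 genes were. Their log2 ratios were 1.36 (0.50 to 2.38) and 1.76 (0.005 to 4.54). Both met the minimum mainly through the light library, with 61.5 and 17.5 molecule-equivalents there and 12.8 and 2.58 in the control. That both were called is therefore no support for a rise of the list. Prkcsh, the glucosidase II beta subunit, stood at 1112 and 2904 CPM, and Sec61b, a subunit of the protein translocation channel, at 223 and 827 CPM. Without these 2 genes, a set chosen after seeing the data, the other 38 stood at 2792 and 2731 CPM (-0.03, -0.68 to 0.64, and 0.45, -0.20 to 1.12, scaled). Hspa5 and Hsp90b1 are outside that list, and their own ratios of 0.65 and -0.30 have intervals that include 0.

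Other lists in the lymph node included 18 mitochondrial chaperones and proteases at -1.15 (-2.28 to -0.11), from 1567 to 690 CPM, with 0 of 18 reaching the minimum count singly. Scaled by the median ratio over genes counted in both libraries, the mitochondrial list stood at -0.67 (-1.80 to 0.37) and no longer had an interval below 0. The 37 proteasome genes had a ratio of -0.22 (-0.62 to 0.18), the 14 genes of the TRiC chaperonin and prefoldin of 0.59 (-0.24 to 1.52) and the 22 oxidative stress genes of 0.50 (-0.35 to 1.43). With the same scaling the last 2 stood at 1.08 (0.24 to 2.00) and 0.98 (0.13 to 1.92), with intervals above 0. The median over the 188 tested genes moves ratios by 0.16 only, which leaves the lower ends of both intervals below 0. Of 12 small heat-shock proteins and heat-shock factors, 0 had a count in either control library, 1 in the lymph node light and 3 in the colon light library. The genes counted were Hsbp1 in both light libraries, and Hsf1 and Hsf2 in the colon light library. No listed small heat-shock protein had a count in any library. Of 10290 genes, 3635 had a count in the lymph node control and 5765 after light there, and 2361 and 6734 in the colon.

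Between the light libraries, the endoplasmic reticulum list summed to less in the colon, 4223 against 6462 CPM (-0.61, -0.95 to -0.28). Prkcsh there had a ratio of -0.96 (-1.51 to -0.42) and Sec61b of -1.12 (-2.26 to -0.06), both with intervals below 0. Scaled by the median ratio over 3777 genes counted in both, which adds 0.54, the endoplasmic reticulum list stood at -0.07 (-0.41 to 0.27). Without Prkcsh and Sec61b the list came to 2361 CPM in the colon and 2731 CPM in the lymph node, a ratio of -0.21 (-0.70 to 0.29), and of 0.33 (-0.16 to 0.83) scaled. The TRiC and prefoldin list at -0.88 (-1.52 to -0.27) and the proteasome at -0.66 (-1.0 to -0.33) were also lower in the colon before that scaling and at -0.34 (-0.98 to 0.28) and -0.12 (-0.46 to 0.22) after it. Hsp70 cochaperones at 0.10 (-0.39 to 0.60), Hsp90 cochaperones at -0.58 (-1.29 to 0.13) and the mitochondrial list at 0.00 (-0.97 to 1.03) had intervals that include 0.

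The genes whose levels across the 4 libraries lay closest to the summed chaperones were Ppig, Sh3bgrl3, Fxyd5, Son and Atp5mpl. Closeness is the Euclidean distance of log2 CPM centred on each gene's mean over the 4 libraries, among 146 genes with a count in all 4, and the 5 distances were 0.44, 0.51, 0.53, 0.62 and 0.64. Ppig, the nearest, stood at 396 and 283 CPM in the lymph node and at 96.8 and 475 CPM in the colon, control first. Of the members with a count in all 4, Hsp90ab1 was at 0.28, Hspa8 at 0.99, Hsp90b1 at 1.26 and Hspa5 at 1.55, so Hspa5 lay farthest from the sum to which it contributes. With 4 libraries, 1 of them shallow, the distances describe these values and carry no test.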

How the data were processed

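Per the labels' protocols, RNA captured on oligo-dT beads was reverse transcribed with a probe that adds a barcode of 7 bases and a molecular identifier of 8. The submitters' processing notes name FastQC, STAR 2.5.1a and mm10. No counting tool is given in the sources used here. The authors deposited whole-number counts per gene and barcode column, with 382 (control) and 379 (light) columns for the lymph node and 384 (control) and 382 (light) for the colon. An unnamed last line in both lymph node tables, 50.0% of their counts, was left out, as were repeated rows (Foxp3 everywhere, and in the colon control also Cd4, Cd3d, Cd3e and Cd3g). A pooled sample's barcode sheet could not be tied to replicates and entered no comparison.

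Deposited counts were summed over columns and scaled to a library total of 1e6 (CPM). Columns are overlapping sums of the same molecules: written as non-negative sums of shared column patterns, 97.5% (control) and 99.2% (light) of genes in the lymph node and 96.2% and 98.1% in the colon were solved exactly. The genes solved exactly hold 71.4% and 77.6% of counts in the lymph node and 51.1% and 52.8% in the colon. Hspa5 in the colon light library and Hspe1 in both lymph node libraries were not solved exactly. Molecule-equivalents are sums divided by the columns a molecule fills, weighted by size (84.1 and 50.5 in the lymph node, 70.9 and 50.1 in the colon). Levels are not divided by gene length, since reads come from the 3′ end, so each gene is compared only with itself across libraries. Log2 ratios used a prior count of 0.5 scaled to depth, with exact 95% conditional intervals on molecule-equivalents (normal intervals for the difference of ratios). Intervals and floors cover counting error only. A gene was tested in a comparison, meaning set against the 2-fold limit, when its libraries together held at least 20 molecule-equivalents. A gene can meet that minimum mainly through the library where it is high. Counts of genes called are therefore descriptions and not support for a direction. On simulated data for light against control in the lymph node (50 simulations, 6888 genes, 200 changed), intervals were scored for genes with at least 20 molecule-equivalents. They covered 96.9% of unchanged genes, 96.5% of 2-fold and 96.4% of 4-fold changes. Coverage for genes under that minimum and for the colon libraries was not simulated. Of 3370 genes in a simulated lymph node control 97.3% were solved exactly.

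The members, lists and tests were chosen with earlier results of these data known. Named genes were the 7 members, up to 4 genes per list and comparison that reached 20 molecule-equivalents, heat-inducible targets by their detection, and the 5 nearest profiles. Hspa1a, Hspa1b, Hsph1 and Dnajb1 were named after their values were seen. A gene of the heat-inducible list is not reported here, and the list's sums leave it out. Markers of CD8 T, fibroblast and endothelial, erythroid, and natural killer and innate lymphoid cells had a count for at most 1 of 2, 3 of 9, 2 of 5 and 2 of 8 genes in any library. Alternatives covered scaling, totals, count minimum, prior, depth, barcodes, recovered molecules and leaving out the largest chaperone. Coordinates are GENCODE M21 (mm10), and promoter sequences are RefSeq on GRCm38.p6. Tools were Python 3.11.15 with scipy 1.17.1, numpy 2.4.6, matplotlib 3.10.9 and pandas 2.3.3.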

Additional observations from a re-analysis of the deposited data

Results flagged for a closer look

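For 2 of the 4 chaperones with a count in all 4 libraries the light ratio pointed in opposite directions in the 2 tissues, with 1 library per group, and the difference was not tested against replicates. Hsp90ab1 was higher after light in the colon (log2 ratio 2.19, 0.48 to 4.96) and at -0.05 (-0.85 to 0.77) in the lymph node, a difference of 2.25. Hsp90b1 stood at 0.41 (-1.68 to 3.71) in the colon and -0.30 (-1.78 to 1.24) in the lymph node, a difference of 0.712. Both lymph node intervals include 0, so the opposite direction is one of nominal sign. The median ratios of all genes tested, 2.19 in the colon and -0.16 in the lymph node, also differ in sign. Over all 412 genes compared this difference had a median of 2.46, above both values. With median-of-ratios scaling over all genes counted in both libraries, both lymph node ratios lie above 0, at 0.43 and 0.18. Hspe1 stood at -1.48 in the lymph node and was listed at 0 in the colon control, whose floor is above its colon light level, so it has no colon fold to compare.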

How the results depend on the processing

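Over 12 alternatives the summed chaperone ratio ranged from -0.05 to 0.51 for light against control in the lymph node, 0.28 to 3.49 in the colon, 0.20 to 0.74 for colon against lymph node in light, -2.15 to 0.61 in control, and 0.09 to 2.98 for the difference of the light ratios. Median-of-ratios scaling over all genes in both libraries subtracted -0.48, -1.34, -0.54 and 0.07 from the ratios of the first 4 comparisons. It gave 3.49 for the colon and 0.74 for colon against lymph node in light. Totals without ribosomal RNA genes and Gm12374 gave 0.58 for the latter. Scaling over tested genes only, chosen after seeing the data along with 2 other alternatives (all recovered molecules, and leaving out the fullest column pattern), gave 0.28 in the colon, 0.61 (reversed) for the control libraries and 0.094 for the difference. It also reversed Hspa8 to 1.11, Hsp90ab1 to 0.37 and Hspd1 to 0.89 for colon against lymph node in control. There Hspa5 turned from -0.67 to 1.83 and Hsp90b1 from -0.94 to 1.57. The cause was not tested.

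Genes at least 2-fold higher and lower depend on the minimum count by construction. At 50 molecule-equivalents and with no minimum they were, for light in the lymph node, 2 and 4, then 2469 and 1688. In the colon they were 53 and 13, then 3649 and 1805. For colon against lymph node they were 8 and 22, then 2351 and 3038 in light, and 9 and 13, then 1730 and 2885 in control. For the difference they were 124 and 12, then 3860 and 2927. Median-of-ratios scaling gave 33 and 2 in the lymph node and 66 and 21 between tissues in light. Scaling over tested genes gave 16 higher in the lymph node, 67 and 48 in the colon, 30 lower between tissues in light, 17 lower in control, and 169 and 103 for the difference.

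Of the values for single chaperones under these alternatives, 362 stayed within the counting error, 12 moved beyond it and 3 reversed, where reversed is kept for ratios of at least 2-fold that changed sign. Ratios of any size changed sign in 24 of the 377 values for chaperones and 3 of the 60 for their sum. Of the sums and counts of genes, 63 stayed, 36 moved and 1 reversed. No paired analysis was possible because each group has 1 library and the groups share 1 replicate number. Depth limits Hspd1, Hspe1 and every colon control value.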
